A study of Mus musculus with 7 samples.

Results

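The comparison set cells sorted from blood as negative for E-cadherin (BEneg) against cells sorted from solid mammary tumours as positive for it (TEpos), in mice with PyMT breast tumours. PyMT is the polyoma virus middle T oncogene, used as a transgene in mouse models of breast cancer, and E-cadherin (Ecad, encoded by Cdh1) is the adhesion protein that joins epithelial cells. The labels call the blood cells circulating tumour cells. Wells were taken where they held at least 500 transcripts that were not spike-ins, which kept 131 of the 192 wells of these populations: 60 of 96 BEneg wells and 71 of 96 TEpos wells. All 4 libraries of the experiment held both populations, with 18, 18, 11 and 13 BEneg wells and 18, 19, 16 and 18 TEpos wells, and wells were summed within each library, so that n = 4 throughout. The whole experiment held 312 wells, of which 220 passed the same minimum. No treatment is named for either group, and both come from PyMT mice. Strain, age, the driver of the transgene, the number of mice behind each library and the other antibodies of the sort are not given in the sources used here. The p-values therefore measure the spread between libraries, which may be technical in part.

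Luminal cells line the ducts and alveoli of the mammary gland, make keratins of simple epithelia and claudins, and secrete caseins and whey proteins under hormonal control. Blood myeloid cells are neutrophils, which carry antimicrobial proteins in granules and make little new ribosomal RNA or protein once mature, and monocytes, which follow CCL2 through the receptor CCR2 into tissue. Both kinds crawl with a fast-turning actin network and are controlled in their differentiation by the transcription factors PU.1 and the C/EBP family.

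Depth and makeup differed between the populations. BEneg wells held a median of 819 transcripts and TEpos wells 2064, and the sums ran from 11172 to 25379 transcripts in BEneg and from 27416 to 71894 in TEpos. Cdh1, which encodes the protein used in the sort, stood at 2.04, 3.96, 5.91 and 3.59 transcripts per 10000 in the BEneg libraries and at 3.37, 3.64, 10.7 and 5.86 in TEpos, so that the groups overlapped (log2 fold change -0.24 ± 0.44 SE, adjusted p = 0.702, edgeR quasi-likelihood test). Of other epithelial defining markers, Epcam was present in 12 of 60 BEneg wells and 62 of 71 TEpos wells, and Krt18 in 8 and 50. Ptprc, the pan-leukocyte surface phosphatase CD45, gave 1 transcript in BEneg and none in TEpos, and is too rare here to tell the populations apart, whereas Tyrobp, an adaptor of myeloid receptors, was present in 57 of 60 BEneg wells and 21 of 71 TEpos wells. Epcam and Krt18 were thus rarer in BEneg wells also at equal depth, whereas Cdh1 and Cd24a (0.14, adjusted p = 0.782, edgeR) were not called. Whether BEneg wells hold circulating tumour cells, as labelled, was not tested, and they are described below by their sort and genes.

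A set of 3 BEneg wells stood apart from the rest by a myeloid share under 3% of transcripts, a limit set after the data were seen. A pair of them, in library 2, held T and NK cell markers: 1 held Cd3d, Cd3g, Cd8b1 and Thy1 and the other Cd3d, Cd3g, Klrd1, Thy1 and Il7r. The remaining well, in library 3, held 3397 transcripts, 28.6% of its library's BEneg sum, with 13 transcripts of Hmgb2 and 4 of Rrm2, genes of dividing cells, and no T or B cell marker. Ribosomal and other translation genes took 44.7%, 41.6% and 34.6% of the transcripts of these wells. Over all 60 BEneg wells, 8 held any of 13 measured T and NK cell markers, 5 held any of 5 B cell markers and none held the 1 erythroid marker measured. Of the 71 TEpos wells, which were deeper, 16, 6 and 0 held such markers.

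The fit across all genes tested 490 and called 48.2% of them at an adjusted p under 0.05, 133 higher in BEneg (27.1% of those tested) and 103 lower (21.0%), with a median log2 fold change of -0.08. Scaling to total transcripts in place of TMM moved that median to -0.48 and the split to 110 higher and 188 lower, so each named change below is relative to the median of all genes, and the genes whose call or direction this ended are named. Leaving out the 3 BEneg wells gave 142 higher and 114 lower.

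In single wells the myeloid and luminal shares were mostly, but not fully, set apart. The myeloid lists (granule proteins, cytokines and their receptors, immune receptors and signalling) took 0.711% to 39.4% of a BEneg well's transcripts, median 15.6%, and 0.261% to 2.06% of a TEpos well's, median 0.830%. In 58 of 60 BEneg wells the myeloid share was above that of every TEpos well. The luminal lists (milk proteins and epithelial identity) took a median of 0.603% in BEneg wells and 4.79% in TEpos wells. Of 60 BEneg wells, 50 lay below every TEpos well and 10 lay within the TEpos range. A well of library 2 among these 10 held 3394 transcripts, 10.5% of them myeloid and 3.51% luminal. All 60 BEneg wells held more myeloid than luminal transcripts, and no TEpos well did.

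**Figure D1:**
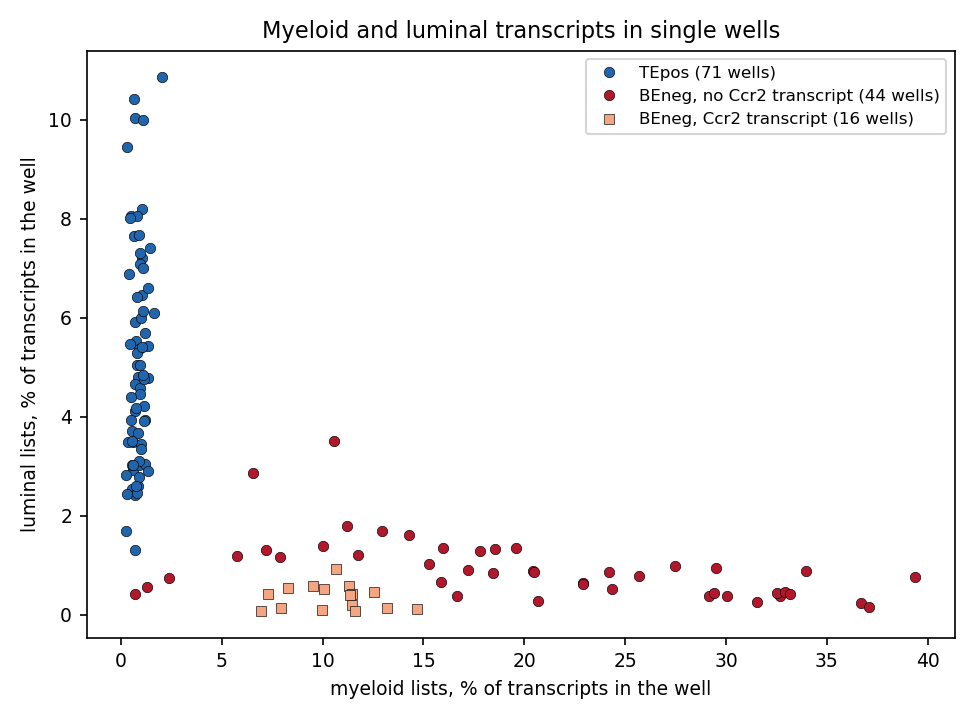
Share of each well's transcripts in the myeloid lists (x axis, percent) and the luminal lists (y axis, percent); each point is a well. TEpos wells stay under 2.06% myeloid, while BEneg wells spread to 39.4%, and the BEneg wells with Ccr2 transcripts (squares) stay between 6.96% and 14.7%.

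Summed by library, the myeloid share was 18.0%, 17.1%, 9.57% and 14.4% in BEneg and 0.820%, 0.759%, 0.747% and 0.928% in TEpos, and the luminal share 0.442%, 1.04%, 0.727% and 0.947% against 5.95%, 4.17%, 4.49% and 5.64%. The groups did not overlap in either. The cytoskeleton lists took 7.79% ± 1.0 (SD, n = 4) of BEneg and 3.34% ± 0.295 of TEpos, translation 18.0% ± 4.04 and 25.3% ± 2.03, secretion machinery 1.16% ± 0.128 and 1.89% ± 0.175, stress 3.36% ± 0.166 and 4.11% ± 0.295, and lipid 0.845% ± 0.195 and 0.683% ± 0.0639. Only the lipid share and the translation share had libraries of one population inside the range of the other. A gene entered the fit when it was high enough in BEneg, TEpos or TEneg, the Ecad-negative tumour cells that shared the fit. A member that is high in only BEneg or only TEpos therefore had to differ, and the counts by list below are descriptions. They stand beside 27.1% higher and 21.0% lower of all tested genes. With the BEneg and TEpos sums only, 402 genes were tested and 242 called (123 higher, 119 lower).

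**Figure D2:**
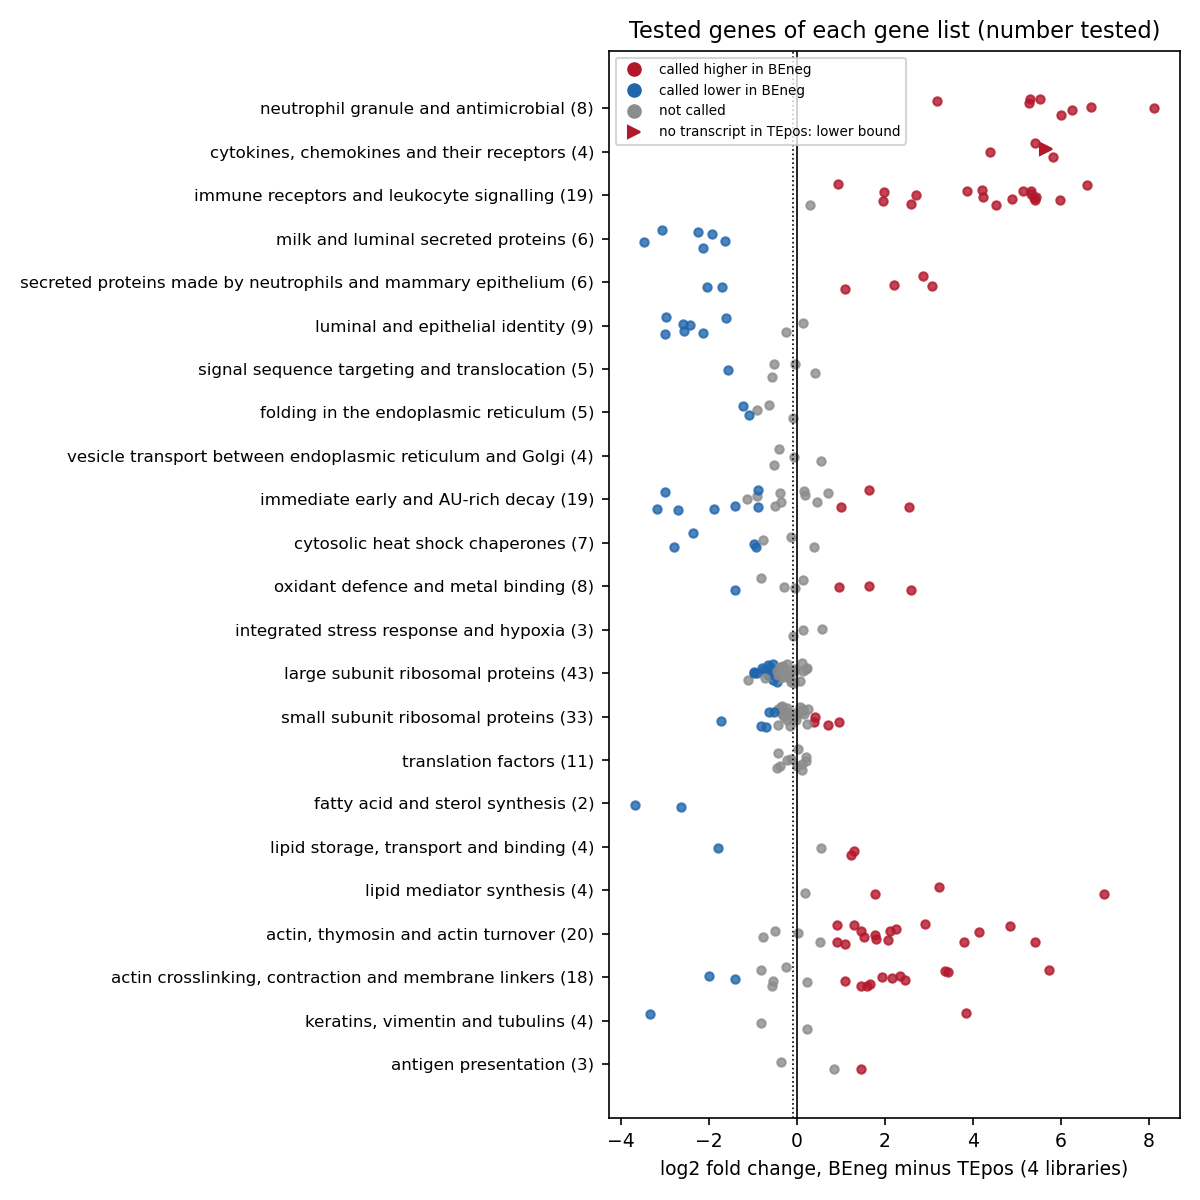
Log2 fold change of every tested member of each gene list, BEneg minus TEpos; red and blue points passed an adjusted p of 0.05, the triangle is the bound of Ccr2, and points of genes with 1 to 3 transcripts in a population are fitted values. The 3 myeloid lists lie to the right, the milk and luminal lists to the left, and ribosomal proteins near the dotted median of all tested genes.

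Of the myeloid lists, granule and antimicrobial genes took the largest share of BEneg transcripts, a mean of 10.2%. All 8 tested of 20 measured members were higher, with a median log2 fold change of 5.76. S100a8 and S100a9 encode the subunits of calprotectin, the most abundant cytosolic protein of neutrophils. S100a8 reached 433, 423, 185 and 243 transcripts per 10000 in the BEneg libraries and 9.58, 8.17, 6.68 and 11.02 in TEpos (log2 fold change 5.52 ± 0.33, adjusted p = 9.17e-14, edgeR). S100a9, named after its values were seen, reached 424, 466, 192 and 314 against 10.7, 8.87, 8.01 and 22.5 (5.28 ± 0.38). Library 3 was lowest for both in BEneg, and the libraries of the populations did not overlap. Retnlg, a secreted resistin-like protein of neutrophils, stood at 80.1, 103, 47.8 and 61.0 in BEneg and at or under 2.56 in TEpos (6.0 ± 0.25).

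Lysozyme M, encoded by Lyz2, cleaves bacterial cell walls and is made by monocytes, macrophages and neutrophils. Lyz2 stood at 64.0, 57.1, 58.5 and 108 per 10000 in BEneg, and in TEpos at 0.336, 0, 0.332 and 0.731, a total of 5 transcripts (8.11 ± 0.38, adjusted p = 6.43e-16, edgeR). Its near-identical neighbour Lyz1 stood at 182, 132, 100 and 163 against 1.12 to 2.19 (6.69 ± 0.32). Reads of these copies could be split between them in the authors' counting, so their separate levels are uncertain. Mmp9, a gelatinase stored in granules, gave 89 transcripts in BEneg and 3 in TEpos, a ratio of 76.9 (95% exact interval 25.5 to 380).

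The sequences just before the starts of 5 genes are shown: S100a8, S100a9 and Lyz2 as abundant genes of the myeloid lists, which were higher in BEneg, Wfdc18 of the milk list, which was lower, and Fos as an abundant stress gene whose call depended on the processing. They are RefSeq windows of GRCm38.p6, the release of the mm10 build, of up to 250 bases before the gene's start, 5′ to 3′ on the gene's strand, with bases inside the GENCODE gene left out. Capitals mark matches on either strand to a PU.1 motif (GAGGAAGT), a C/EBP motif (TTGCNNAA) or a TATA box (TATAAA), none of which overlapped another in these windows.
S100a8, chr3:90668821-90668977, plus strand: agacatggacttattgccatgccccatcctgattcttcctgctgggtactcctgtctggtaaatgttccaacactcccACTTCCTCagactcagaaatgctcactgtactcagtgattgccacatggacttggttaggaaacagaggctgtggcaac
S100a9, chr3:90695722-90695971, minus strand: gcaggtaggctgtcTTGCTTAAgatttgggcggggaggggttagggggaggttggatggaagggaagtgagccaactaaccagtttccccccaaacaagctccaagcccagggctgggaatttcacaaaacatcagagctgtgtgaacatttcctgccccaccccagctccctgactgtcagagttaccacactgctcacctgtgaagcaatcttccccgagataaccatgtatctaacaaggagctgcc
Lyz2, chr10:117282322-117282522, minus strand: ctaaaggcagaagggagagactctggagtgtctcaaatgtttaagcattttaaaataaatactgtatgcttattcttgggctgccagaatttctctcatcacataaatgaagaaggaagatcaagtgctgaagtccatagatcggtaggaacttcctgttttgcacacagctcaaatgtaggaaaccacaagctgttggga
Wfdc18, chr11:83708754-83709003, plus strand: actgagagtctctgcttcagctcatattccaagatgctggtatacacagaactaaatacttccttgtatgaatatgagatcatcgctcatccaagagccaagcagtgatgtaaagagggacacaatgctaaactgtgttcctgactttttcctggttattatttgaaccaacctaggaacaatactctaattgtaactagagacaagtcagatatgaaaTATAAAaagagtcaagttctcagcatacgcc
Fos, chr12:85473640-85473889, plus strand: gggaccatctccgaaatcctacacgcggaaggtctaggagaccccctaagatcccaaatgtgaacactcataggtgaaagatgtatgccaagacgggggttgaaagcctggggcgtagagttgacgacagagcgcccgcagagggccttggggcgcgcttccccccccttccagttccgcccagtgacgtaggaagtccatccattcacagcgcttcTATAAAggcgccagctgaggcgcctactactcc

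The match in S100a8 is the PU.1 motif read on the opposite strand, 172 to 165 bases before the start, and a TATAAA lay 30 to 25 bases before the start, outside the printed stretch. S100a9 held the C/EBP motif 236 to 229 bases before its start, and Fos and Wfdc18 held TATAAA 33 to 28 and 31 to 26 bases before theirs. Over all 32851 windows of that table, 2.44% held the PU.1 motif, 9.56% the C/EBP motif and 12.4% the TATA box, and over the 419 windows of tested genes 2.63%, 10.5% and 10.3%. Of the 122 windows of genes higher in BEneg 5 held the PU.1 motif (4.10%), 18 the C/EBP motif (14.8%) and 19 the TATA box (15.6%), and of the 86 windows of genes lower in BEneg 2 (2.33%), 6 (6.98%) and 9 (10.5%). Windows were found for 107 of the 133 higher and 71 of the 103 lower genes. These matches are descriptions of letters, and binding was not measured.

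Sfpi1, the gene of PU.1, gave 52 transcripts in BEneg and 1 in TEpos, a ratio of 135 (95% exact interval 23.1 to 5422). It was present in all 4 BEneg libraries, at 6.95, 5.96, 5.91 and 11.7 per 10000.

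Of cytokines, chemokines and their receptors, 4 of 25 measured members were tested and all 4 were higher in BEneg; the median was 5.62, or 5.54 with Ccr2 at its bound. Il1b, the inflammatory cytokine interleukin 1 beta, stood at 22.2, 15.9, 22.1 and 29.8 per 10000 in BEneg and 0.504, 0.139, 0.332 and 1.10 in TEpos (5.83 ± 0.38, adjusted p = 1.05e-12, edgeR). The CC chemokine Ccl6 (5.42 ± 0.41) and Csf2rb, the shared beta chain of the GM-CSF, IL-3 and IL-5 receptors (4.4 ± 0.60), were also higher, with no overlap of libraries. Ccr2, the receptor for CCL2, gave 59 transcripts in BEneg and 0 in TEpos, at least 50.9-fold higher against a floor of 3 transcripts over the group. Among members below the filter, the chemokine receptor genes Ccr1 and Cxcr2 gave 32 and 32 transcripts in BEneg and 2 and 16 in TEpos, and the formyl peptide receptor gene Fpr2 gave 41 and 2.

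In the list of immune receptors and leukocyte signalling genes, 18 of 19 tested were higher, against 27.1% of all tested genes. Cebpd, a C/EBP family gene, did not pass (0.29 ± 0.39, adjusted p = 0.581, edgeR) and was at -0.15 with scaling to total transcripts. The higher genes of this list, and the myeloid share, include the antioxidant enzyme genes Gpx1 (1.98 ± 0.21) and Msrb1 (2.60 ± 0.28), which are not immune receptors. Tyrobp stood at 53.7, 44.1, 31.4 and 34.2 per 10000 in BEneg and 2.19, 0.697, 1.33 and 1.10 in TEpos (5.31 ± 0.30). Srgn, the proteoglycan core of secretory granules, rose by 5.42 ± 0.39, Cd52, a small surface glycoprotein of leukocytes, by 4.53 ± 0.34, and Plac8 by 4.24 ± 0.31. Ly6c2, a surface antigen of inflammatory monocytes, gave 88 transcripts in BEneg and 2 in TEpos, a ratio of 114 (interval 30.6 to 956). Tgfbi, a secreted adhesion protein of monocytes, and Bin2, a membrane-bending protein of leukocytes, gave 60 and 43 transcripts in BEneg and none in TEpos, at least 51.8-fold and 37.1-fold higher.

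**Figure D3:**
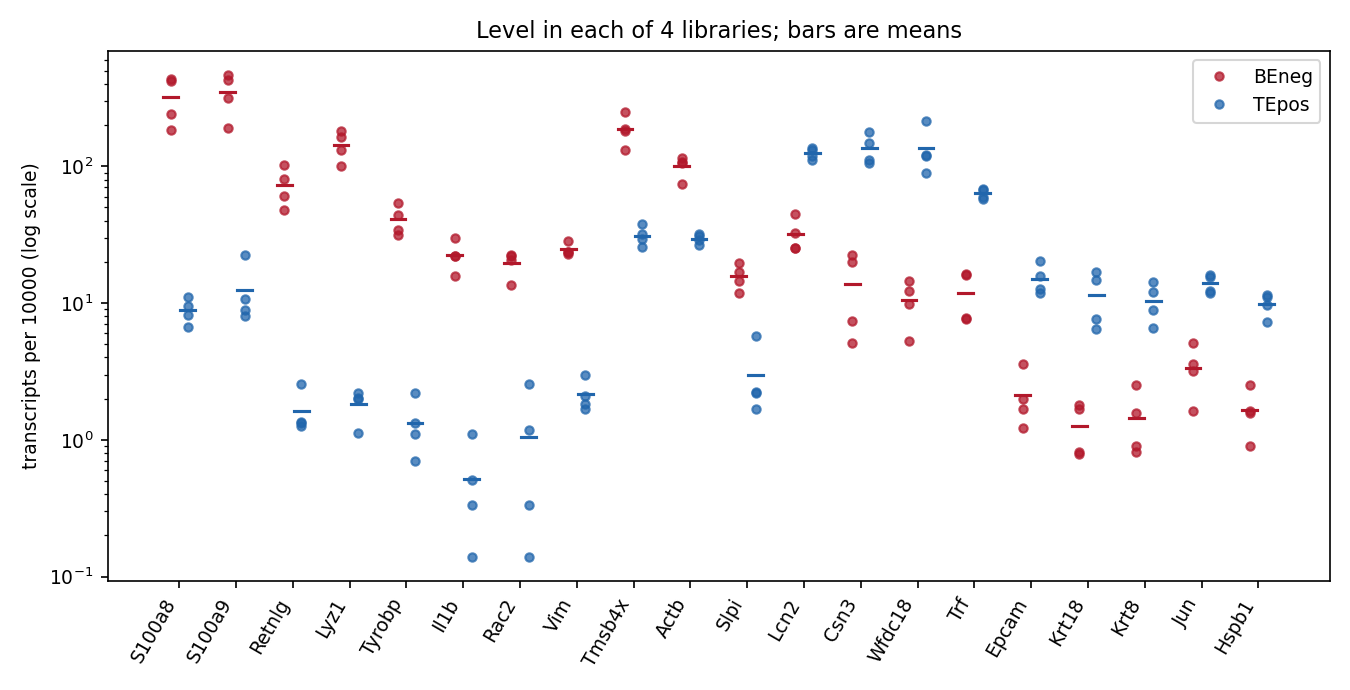
Transcripts per 10000 (log axis) of 20 genes in each of the 4 libraries of BEneg (red) and TEpos (blue); horizontal bars are means. The genes were chosen for display, and libraries of the populations do not overlap for any of them. S100a8 lies between 185 and 433 in BEneg and Wfdc18 between 89.5 and 216 in TEpos. Libraries of other named genes, such as Cdh1, Ltf and Cebpd, overlap.

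The BEneg wells were of more than 1 kind. Ccr2 transcripts were found in 16 of 60 BEneg wells, 5, 3, 3 and 5 by library, and in 0 of 71 TEpos wells, which by counting error alone, and were the wells of the 4 libraries independent, allows a share of up to 4.225% of wells with a transcript. These wells were deeper, with a median of 1441 transcripts against 730 in the 44 others, and a shallow well can miss Ccr2. Over the 16 wells together, Lyz2 reached 150.5 per 10000, Ly6c2 23.9 and S100a4 33.2, and S100a8 36.1 and S100a9 26.5. Over the 44 others, S100a8 reached 565, S100a9 610, Retnlg 128 and Il1b 32.7, while Lyz2 was at 14.9, Ly6c2 at 4.50 and S100a4 at 1.57. Mmp9 gave no transcript in the wells with Ccr2 and was present in 32 of the 44 others. Tyrobp was alike in both, at 44.9 and 43.0, and so was Actb, at 107 and 102. Wells were split by a gene of their own, so these values carry no test.

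Milk and luminal secreted proteins were lower in BEneg in all 6 tested of 25 measured members, with a median log2 fold change of -2.19. Csn3, which encodes kappa-casein, the protein that keeps milk micelles in solution, stood at 148, 110, 106 and 178 per 10000 in TEpos and 7.41, 22.3, 5.07 and 19.9 in BEneg (-3.05 ± 0.29, adjusted p = 1.03e-09, edgeR). Wfdc18, a secreted whey acidic protein family member, stood at 216, 89.5, 118 and 120 against 5.31, 12.3, 14.4 and 9.89 (-3.47 ± 0.33). The iron carrier transferrin, Trf, stood at 57.9 to 67.9 in TEpos and 7.6 to 16.2 in BEneg (-2.14 ± 0.22), and Igfbp5, which binds insulin-like growth factors, fell by 1.63 ± 0.24 on the log2 scale. Of members under the filter, the alpha-lactalbumin gene Lalba gave 62 transcripts in TEpos and 2 in BEneg, and Wfdc2 gave 36 and 0.

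These transcripts were not absent from BEneg. Csn3 was found in 31 of 60 BEneg wells and Wfdc18 in 35, and after thinning every well to 500 transcripts in 38.0% ± 21.7 and 44.1% ± 16.4 of wells (SD, n = 4), against 91.9% ± 12.5 and 94.3% ± 0.419 in TEpos. In the other direction, S100a8 was found in 54 of 71 TEpos wells, 38.5% ± 23.1 after thinning, against 82.7% ± 4.93 in BEneg. Where these low levels come from was not tested.

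Epithelial identity genes fell in 7 of 9 tested cases, against 21.0% of all tested genes, median -2.43. Epcam, a surface adhesion protein of epithelia, stood at 11.8, 12.7, 20.2 and 15.8 per 10000 in TEpos and 1.22, 1.98, 1.69 and 3.59 in BEneg (-2.59 ± 0.38, adjusted p = 2.46e-06, edgeR). The keratins of simple epithelia, Krt18 (-2.99 ± 0.44) and Krt8 (-2.55 ± 0.41), and the tight junction claudin Cldn3 (-2.97 ± 0.51) had no overlap of libraries. Cd24a and Cdh1 did not pass. The RIKEN gene 1600029D21Rik, in none of the lists, had the lowest log2 fold change of the called genes that were lower in all 4 libraries, with 4 transcripts in BEneg and 185 in TEpos (-3.82 ± 0.62).

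Secreted proteins that neutrophils and mammary epithelium both make split in direction, with 4 of 6 tested higher and 2 lower, median 1.65; with only the BEneg wells that held Ccr2, 2 of 4 were higher and 2 lower, median -1.07. Slpi, an inhibitor of leukocyte elastase, stood at 16.8, 19.6, 11.9 and 14.4 per 10000 in BEneg and 1.69, 2.24, 5.77 and 2.2 in TEpos (2.86 ± 0.45, adjusted p = 6.44e-06, edgeR). Anxa1, a lipid-binding protein that restrains leukocyte adhesion, was higher (3.08 ± 0.30), as were the protease inhibitor gene Cst3 (2.21 ± 0.38) and B2m, the light chain of MHC class I (1.09 ± 0.16). The iron-withholding proteins of neutrophil secondary granules went the other way. Lcn2, which captures bacterial siderophores, stood at 25.2, 44.8, 25.5 and 32.6 in BEneg and 112, 131, 119 and 136 in TEpos (-1.69 ± 0.23). Ltf, lactoferrin, stood at 1.63 to 3.56 in BEneg and 23.1, 9.86, 3.32 and 13.1 in TEpos (-2.03 ± 0.51), with library 3 of TEpos inside the BEneg range; its adjusted p was 0.0586 without library 1.

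Transcripts of the secretion machinery took a smaller share in BEneg, but its genes together were called lower about as often as all tested genes (21.0%). Lists for translocation into the endoplasmic reticulum, folding there and vesicle transport took 0.394% ± 0.0392, 0.271% ± 0.0779 and 0.492% ± 0.0792 of BEneg transcripts and 0.737% ± 0.0661, 0.516% ± 0.0822 and 0.632% ± 0.0381 of TEpos transcripts (SD, n = 4), each lower in BEneg in 4 of 4 libraries. Few members were deep enough to test: 1 of 5, 2 of 5 and 0 of 4 tested members were called lower, 3 in all, and none higher. P4hb, a protein disulfide isomerase, stood at 1.63, 2.38, 4.22 and 3.59 per 10000 in BEneg and 7.45, 9.77, 5.33 and 8.44 in TEpos (-1.22 ± 0.34, adjusted p = 0.00423, edgeR). Calr, a calcium-binding chaperone of glycoproteins, fell by 1.08 ± 0.32 on the log2 scale, and Dad1, a subunit of the oligosaccharyltransferase, by 1.56 ± 0.57. All 3 genes were lower in BEneg in 4 of 4 libraries, without overlap, but their calls were lost when certain single libraries were left out. The adjusted p of P4hb was 0.0504 without library 1 and 0.0933 without library 2, and that of Calr 0.138 without library 2. For Dad1 it was 0.14, 0.0506 and 0.0865 without libraries 1, 3 and 4. Among members below the filter, Srpr, the signal recognition particle receptor, gave 1 transcript in BEneg and 33 in TEpos, a ratio of 12.7 (interval 2.13 to 518), and Dnajc3, a chaperone of the unfolded protein response, gave the same numbers.

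Stress genes did not move as a group. Of immediate early and AU-rich decay genes, 3 of 19 tested were higher and 7 lower (all tested genes: 27.1% and 21.0%), median -0.49. The count depended on the wells kept: without the 3 wells that stood apart 3 were higher and 5 lower, without the wells with Ccr2 4 and 4 of 16, and with only those wells 1 and 9 of 15. After thinning every well to 500 transcripts only 5 members could be tested, of which 2 were higher and none lower. Of the genes of the AP-1 transcription factor, Jun and Fosb fell, while Junb (0.47 ± 0.34) and Jund (-0.35, adjusted p = 0.428, edgeR; named after its values were seen) did not pass. Jun stood at 1.63, 3.17, 5.07 and 3.59 per 10000 in BEneg and 16.1, 12.2, 15.6 and 11.8 in TEpos (-1.87 ± 0.39, adjusted p = 0.000262, edgeR), and Fosb fell by 2.99 ± 0.63. Cyr61, a matrix protein induced by YAP and serum, fell by 3.18 ± 0.68. Fos, named after its values were seen, stood at 12.3, 15.6, 16.9 and 13.5 in BEneg and 48.0, 23.9, 29.3 and 34.4 in TEpos (-0.87 ± 0.29, adjusted p = 0.013), but its adjusted p was 0.15 without library 1, 0.105 without library 4 and 0.0895 without the 3 BEneg wells that stood apart. After thinning, Jun was at -1.08 (adjusted p = 0.116) and Fos at -0.31 (adjusted p = 0.384).

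Mcl1, which protects myeloid cells from apoptosis, was higher, at 15.6, 17.1, 7.61 and 27.0 against 4.06, 3.22, 2.34 and 4.4 (2.54 ± 0.32, adjusted p = 1.64e-07, edgeR). Btg1, an antiproliferative gene, rose by 1.63 ± 0.29, and Dusp1, a MAP kinase phosphatase, by 1.01 ± 0.41; the call of Dusp1 was lost with scaling to total transcripts (0.60, adjusted p = 0.197) and without library 2 (adjusted p = 0.283) or library 4 (0.0965). The kinds of BEneg well differed in these genes: with only the wells that held Ccr2, Jun was at -4.42 and Btg1 at 0.20, and without those wells Jun was at -1.22 and Btg1 at 2.14. The difference between these values was not tested.

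Heat shock chaperones were lower in 4 of 7 tested cases and higher in none, against 21.0% and 27.1% of all tested genes, median -0.92. Hspb1, a small heat shock protein that epithelia keep at a high level, stood at 1.63, 1.58, 2.53 and 0.897 per 10000 in BEneg and 9.68, 11.5, 11.1 and 7.32 in TEpos (-2.35 ± 0.42, adjusted p = 3.95e-05, edgeR). The inducible Hspa1b gave 3 transcripts in BEneg and 70 in TEpos, a ratio of 9.01 in favour of TEpos (interval 2.96 to 44.7), and its sister gene Hspa1a, below the filter, 0 and 42; near-identical copies, their separate counts are uncertain. The constitutive Hspa8 did not pass (-0.13 ± 0.17, adjusted p = 0.573). The HSP90 genes Hsp90ab1 (-0.92 ± 0.24) and Hsp90aa1 (-0.97 ± 0.37) were lower, but library 3 of BEneg, which holds the well with Hmgb2 and Rrm2, reached 21.5 and 7.71, inside the TEpos range. Without the 3 wells that stood apart the HSP90 genes were at -1.22 and -1.84, and the part of the library 3 well in this was not tested. The adjusted p of Hsp90ab1 was 0.0504 without library 1, and that of Hsp90aa1 0.159, 0.269 and 0.0715 without libraries 1, 2 and 4. Without the BEneg wells with Ccr2, only 1 of 6 tested members was lower, without wells over 8000 transcripts 2 of 6, and after thinning neither of the 2 that could be tested.

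In the oxidant defence list 3 of 8 tested genes were higher and 1 lower, against 27.1% and 21.0% of all tested genes. The list took 1.09% of BEneg and 0.824% of TEpos transcripts, higher in BEneg in 4 of 4 libraries. Gpx1 and Msrb1, counted in the immune list above, were also higher. Ftl1, the ferritin light chain, stood at 45.9, 43.9, 32.3 and 49.9 per 10000 in BEneg and 17.6, 17.9, 12.1 and 21.0 in TEpos (1.65 ± 0.18, adjusted p = 1.03e-08, edgeR). The peroxiredoxin gene Prdx5 (2.59 ± 0.41) and thioredoxin, Txn1 (0.95 ± 0.22), were higher and Prdx2 was lower (-1.40 ± 0.40; adjusted p = 0.0789 without library 2, edgeR). In the BEneg wells with Ccr2 alone Txn1 was at -0.12. Of integrated stress and hypoxia genes, 3 of 22 measured were tested and none was called at an adjusted p under 0.05.

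Translation genes were the largest group of transcripts in TEpos. By mean share they were also the largest in BEneg, at 18.0% against 14.8% for the myeloid lists. BEneg library 4 had the other order, at 13.3% and 14.4%. Among the translation lists, only the large subunit one held a larger part of lower genes than the 21.0% of all tested genes. Of large subunit ribosomal proteins, 17 of 43 tested were lower and none higher, median -0.42. Of small subunit proteins, 5 of 33 were lower and 4 higher, median -0.15, and of 11 translation factors none was called (3 lower with scaling to total transcripts). After thinning, 10 of 39 large subunit genes were lower and 1 higher, and without wells over 8000 transcripts 25 of 43 were lower. Rpl36 stood at 9.46, 13.1, 18.0 and 5.38 per 10000 in BEneg and 31.3, 35.3, 21.9 and 16.9 in TEpos (-0.98 ± 0.20, adjusted p = 0.000191, edgeR), and Rpl23a at 21.9, 28.9, 37.6 and 11.7 against 48.5 to 58.3 (-0.80 ± 0.19). Rpl24 (-0.91 ± 0.19), Rpl27 (-0.75 ± 0.18), Rps10 (-0.70 ± 0.18) and Rps2 (-0.63 ± 0.17) were lower by similar amounts; without library 2 the adjusted p was 0.064 for Rps10 and 0.0597 for Rps2. Rps27l, a p53-induced relative of Rps27, fell by 1.71 ± 0.38, while the abundant Rpl41 did not pass (-0.32 ± 0.18).

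The 4 small subunit genes called higher were Rps9 (0.70 ± 0.16), Fau (0.96 ± 0.26), Rps12 (0.42 ± 0.18) and Rps16 (0.40 ± 0.16). With scaling to total transcripts none of the 4 was called, and Rps16 and Rps12 stood at 0.01 and 0.04, while 36 large and 19 small subunit genes were lower. Rps16 and Rps12 also lost their calls without library 1 (adjusted p = 0.143 and 0.246), without library 3 (0.0816 and 0.152) and without the 3 wells that stood apart (0.0895 and 0.0966). Processed copies of ribosomal protein genes are common in the genome, and whether the authors' counting separated them is not stated in the labels.

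The translation share differed widely among BEneg wells. It ran from 4.43% to 44.7% in BEneg wells and from 12.9% to 33.9% in TEpos wells. In the 16 wells with Ccr2 the median was 23.5%, near the 24.8% of TEpos wells, and in the 41 wells without Ccr2 and outside the 3 that stood apart it was 9.44%, with a highest value of 21.6%. Without the 3 wells, 25 large subunit and 11 small subunit genes were lower in BEneg and 2 small subunit genes higher. With only the wells that held Ccr2, 7 and 4 were lower, and without them 25 and 9; the wells with Ccr2 were also the deeper ones, and the part that depth takes in this was not tested.

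**Figure D4:**
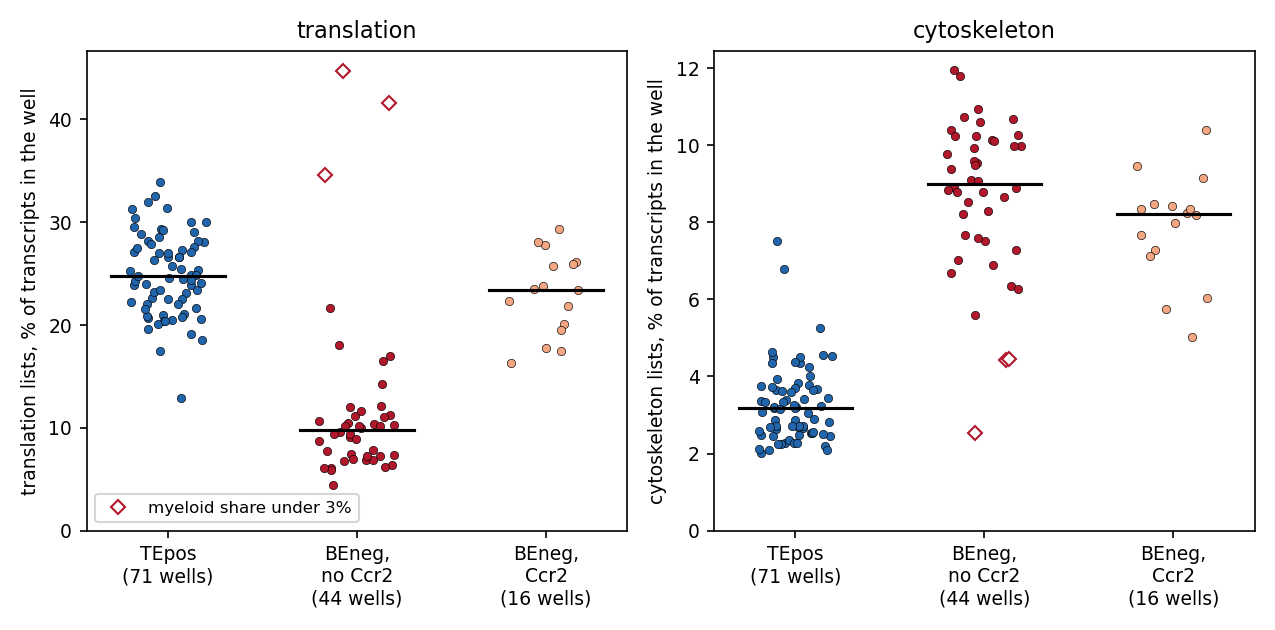
Share of each well's transcripts in the translation lists (left) and the cytoskeleton lists (right), percent, for TEpos wells and BEneg wells without and with Ccr2 transcripts; bars are medians and open diamonds the 3 BEneg wells under 3% myeloid. Translation shares of BEneg wells with Ccr2 lie around 23.5%, among TEpos wells, while both kinds of BEneg well exceed most TEpos wells in cytoskeleton share.

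Lipid genes differed by branch, from few transcripts. Fatty acid and sterol synthesis had 27 measured members, of which both tested ones were lower. Srebf1, the transcription factor that turns on lipogenesis, stood at 0, 0, 0.844 and 0.897 per 10000 in BEneg and 5.58, 4.50, 5.01 and 4.02 in TEpos, 2 against 91 transcripts and a ratio of 17.6 in favour of TEpos (interval 4.72 to 147; adjusted p = 0.000191, edgeR). Scd2, a desaturase, stood at 0.408, 0.395, 0.844 and 1.79 against 4.90, 4.91, 4.34 and 9.55 (-2.63 ± 0.54). Below the filter, the fatty acid synthase gene Fasn gave 0 transcripts in BEneg and 29 in TEpos and Thrsp, a lipogenic regulator, 3 and 74.

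The list of lipid mediator genes went the other way, with 3 of 4 tested members higher, against 27.1% of all tested genes. Of these 3, only Alox5ap is described here by a part in synthesis. Alox5ap, the protein that presents arachidonic acid to 5-lipoxygenase for leukotriene synthesis, stood at 25.1, 13.5, 9.31 and 28.0 per 10000 in BEneg and 0.504, 0, 0 and 0 in TEpos, 138 against 3 transcripts and a ratio of 119 (interval 39.9 to 585; adjusted p = 6.84e-12, edgeR). Pla2g7, which hydrolyses platelet-activating factor, rose by 3.24 ± 0.48 and Anxa2, a membrane-binding annexin, by 1.78 ± 0.31. Of lipid storage, transport and binding genes, the apolipoprotein Apoe (1.24 ± 0.38) and the lysosomal cholesterol carrier Npc2 (1.30 ± 0.39) were higher and Dbi, which carries acyl-CoA, was lower (-1.78 ± 0.50). The calls of Apoe and Npc2 were lost with scaling to total transcripts, at 0.83 and 0.88 (adjusted p = 0.0659 and 0.0557), and that of Npc2 also without library 1 (0.0541).

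Cytoskeleton genes took a larger share in BEneg than in TEpos in every library, 9.07%, 7.90%, 6.65% and 7.54% against 3.41%, 2.95%, 3.66% and 3.33%. In 45 of 60 BEneg wells the share lay above every TEpos well. Of actin and actin turnover genes, 16 of 20 tested were higher and none lower (all tested genes: 27.1% and 21.0%), median 1.65. Tmsb4x, thymosin beta 4, which holds actin monomers in reserve, stood at 248, 180, 132 and 187 per 10000 in BEneg and 37.6, 25.6, 31.8 and 29.6 in TEpos (2.91 ± 0.22, adjusted p = 2.09e-11, edgeR). Actb, beta actin, stood at 116, 105, 73.6 and 108 against 30.8, 28.9, 32.1 and 26.6 (2.07 ± 0.19). Coro1a, a leukocyte coronin that binds the Arp2/3 complex, rose by 5.42 ± 0.59. With scaling to total transcripts 13 members were higher and 1 lower, and with only the BEneg wells that held Ccr2 9 of 18 were higher and 1 lower.

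Of crosslinkers, contractile proteins and membrane linkers, 11 of 18 tested were higher and 2 lower (all tested genes: 27.1% and 21.0%), median 1.53. With only the BEneg wells that held Ccr2 the median was 0.02, with 7 of 15 higher and 2 lower, and without the 3 wells that stood apart 11 of 17 were higher and none lower. S100a4, a calcium-binding protein that acts on myosin, stood at 24.7, 5.17, 11.01 and 12.7 per 10000 in BEneg and at or below 0.664 in TEpos (5.73 ± 0.53), mostly from wells with Ccr2. S100a6 (2.45 ± 0.30) and S100a11 (1.60 ± 0.19) were higher, though S100a11 was at -0.28 in the wells with Ccr2 alone. Cald1, caldesmon (-2.0 ± 0.69), and Cnn3, calponin 3 (-1.41 ± 0.53), were lower. Cald1 had an adjusted p (edgeR) of 0.0505 without library 3 and 0.0583 without library 4. Without the 3 wells that stood apart Cald1 was too low to test. Cnn3 had an adjusted p of 0.184 without library 1, 0.126 without library 4 and 0.0535 without the 3 wells that stood apart. Of intermediate filaments and tubulin genes, 4 were tested, with a median of -0.29, or 0.09 over 3 without the 3 wells. Vim, vimentin, stood at 28.6, 22.8, 23.8 and 23.6 in BEneg and 1.68, 2.1, 3.0 and 1.83 in TEpos (3.85 ± 0.31, adjusted p = 4.01e-11, edgeR). Stmn1, which destabilises microtubules, gave 2 transcripts in BEneg and 71 in TEpos, a ratio of 13.7 in favour of TEpos (interval 3.66 to 115).

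Several close relatives differed in their fold changes, and the pairs below were chosen after their values were seen. Actg1, gamma actin, stood at 52.1, 42.4, 35.7 and 30.7 per 10000 in BEneg and 53.9, 47.9, 45.0 and 54.5 in TEpos (0.02 ± 0.18, adjusted p = 0.938, edgeR; -0.38 with scaling to total transcripts), while Actb rose by 2.07. Rac2, a small GTPase of blood cells, rose by 4.85 ± 0.41 and the widely expressed Rac1 by 1.10 ± 0.31, a call lost with scaling to total transcripts (0.69). Moesin, Msn, links actin to the membrane of leukocytes and rose by 3.36 ± 0.35, while its epithelial relative ezrin, Ezr, was at -0.57 ± 0.36. The myosin regulatory light chains were at 1.67 ± 0.30 for Myl12b, which was called, and at -0.24 ± 0.31 for Myl12a, which was not. Junb was at 0.47 ± 0.34 beside the lower Jun. Of MHC class I heavy chains, H2-D1 rose by 1.46 ± 0.22 and H2-K1 was at -0.36 ± 0.23; these genes are alike in sequence, so their separate counts are uncertain. The differences between the members of a pair were not tested.

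**Figure D5:**
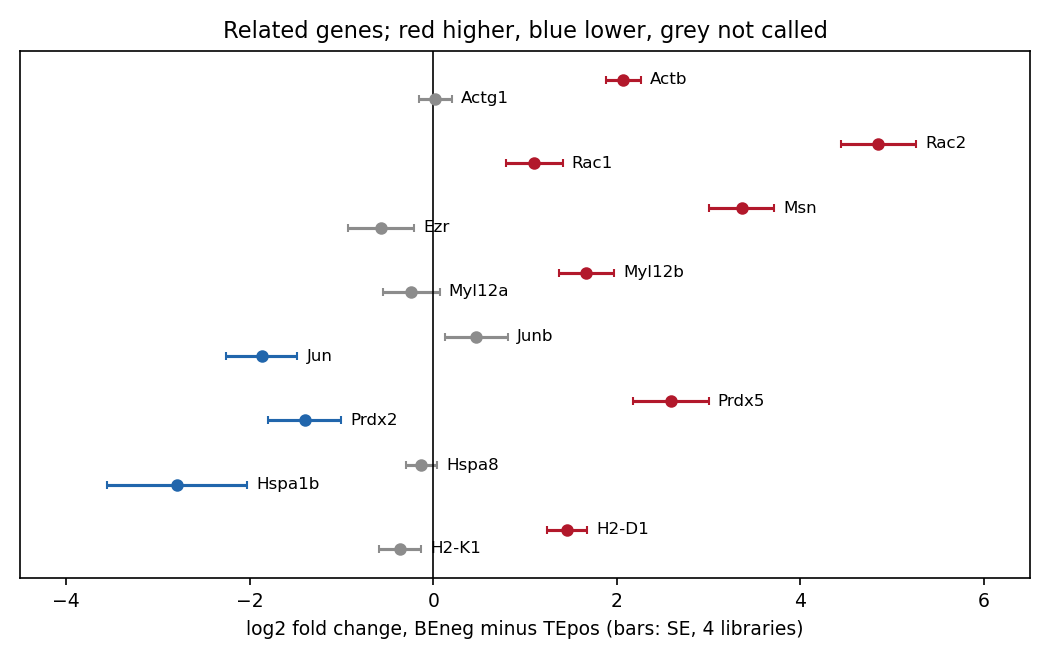
Log2 fold change, BEneg minus TEpos, of 8 pairs of related genes, with SE over 4 libraries; red points were called higher, blue lower and grey not called. Beta actin, Rac2, moesin and Myl12b lie at 1.67 to 4.85, and gamma actin, ezrin and Myl12a between -0.57 and 0.02.

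Markers of other tissue cells were rare in both populations, whose summed depths differ, so shares are given beside transcripts. Endothelial markers gave 14 transcripts in 11 of 60 BEneg wells and 90 in 39 of 71 TEpos wells, with 6 and 1 of 10 measured markers at 0, and a share of 0.0198% against 0.0497%. Fibroblast markers gave 13 transcripts in 7 BEneg wells and 98 in 45 TEpos wells, with shares of 0.0165% and 0.052%, and basal and myoepithelial markers 17 in 15 and 76 in 31, with shares of 0.0267% and 0.0409%. Macrophage markers gave 19 transcripts in each population, in 16 and 14 wells, which is 0.0274% ± 0.00674 of BEneg and 0.0097% ± 0.00183 of TEpos (SD, n = 4), higher in BEneg in 4 of 4 libraries; of the 19 in BEneg, 11 were of Cd68, which monocytes also make, and C1qc and Mrc1 were at 0. Platelet markers gave 10 transcripts in 7 BEneg wells and 30 in 23 TEpos wells, shares of 0.0123% and 0.0137%. The part of these cells in the values of either population was not tested.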

How the data were processed

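Single cells were sorted from blood and solid tumours and read by CEL-seq, which tags each cell and each molecule and counts transcripts at their 3′ end. The authors' deposited table holds estimated counts per well, 256·ln(256/(256 − k)) for k molecular barcodes seen, as its values show; the mapping used BWA 0.6.2-r126 and the mm10 build, as given in the submitters' processing notes. No 2 wells held identical values. Wells of at least 500 transcripts were summed per library and population (TEpos, BEneg and TEneg, the Ecad-negative tumour cells), giving 12 sums, and rounded. edgeR 4.0.16 (R 4.3.3) fitted the quasi-likelihood test with TMM scaling, filterByExpr and the library as a block, since both populations share each library; same-library residuals correlated at 0.199, 0.0608, 0.211 and 0.351. Benjamini-Hochberg adjustment ran over all 490 tested genes. Levels are transcripts per 10000. Exact binomial intervals (95%) of ratios and the floor of 3 transcripts cover counting error only. Replicate sums differed beyond sampling noise (chi-square per degree of freedom 1.64 to 3.14). In simulated counts, 47.9% of genes changed 2-fold and 96.0% of those changed 4-fold were called, with 1.55% of unchanged genes, over 519 genes. These counts had the same dispersion for every gene, no library effect and levels pooled over the populations. The rates in the data can therefore differ. Doublets were not called. The members and gene lists were chosen with earlier results of these data known. Named genes were, per list, up to 4 called in each direction by smallest p and 2 uncalled by level, the 10 largest changes each way that held in 4 of 4 libraries, and Cdh1, Ptprc and Epcam. Alternatives used DESeq2 1.42.0, limma 3.58.1 (pseudocount 1 per 10000), other scalings, filters, well minimums and left-out libraries. Promoter windows came from RefSeq, gene bounds from GENCODE vM21.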

Additional observations from a re-analysis of the deposited data

Results flagged for a closer look

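In a group of 4 libraries, a library was singled out when its gap to the nearest of the others divided by the group's range was above Dixon's 95% critical value for 4 samples. This met 20 of 182 groups looked at, and chance alone does so in about 1 of 20. Among the myeloid genes, in transcripts per 10000, BEneg library 4 was highest for Lyz2 (107.8), BEneg library 1 was highest for Plac8 (29.18), Cd52 (43.87) and Ly6c2 (23.45), BEneg library 3 was lowest for Ccl6 (11.82), and TEpos library 4 was highest for Retnlg (2.56). Of the cytoskeleton genes, BEneg library 3 was lowest for Coro1a (5.065) and Msn (8.446), BEneg library 1 highest for Vim (28.57), TEpos library 4 lowest for Msn (0.3655) and highest for Rac1 (6.587). BEneg library 3 holds the 3397-transcript well with few myeloid transcripts, and the part of this well in the library 3 values was not tested.

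Of the lipid genes, BEneg library 3 was lowest for Anxa2 (7.602) and TEpos library 4 highest for Scd2 (9.548). Of the stress genes, TEpos library 4 was lowest for Hspa1b (1.096), TEpos library 3 highest for Hsp90aa1 (9.716) and BEneg library 4 lowest for Txn1 (11.68). Among secreted proteins, TEpos library 4 was highest for Igfbp5 (76.17) and TEpos library 3 for Slpi (5.771). TEpos library 1 had the highest stress share (4.549%) and TEpos library 4 the lowest translation share (22.22%).

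Blood cells sorted as positive for E-cadherin were present in library 1 only and entered no comparison. Their 20 wells held 4.371% of transcripts in the myeloid lists (95% exact binomial interval 4.226 to 4.52, counting error only), above the 0.820% of TEpos in that library, and 0.153% in the luminal lists.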

How the results depend on the processing

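Of 97 named genes with a test, 86 were called, 57 of these under every one of the 19 alternatives that gave them a value (14 planned, 5 chosen after seeing the data). Of 1497 values of called genes, 1391 kept direction and call, 100 lost the call and 6 reversed. Of 200 values of the 11 uncalled genes, 28 reversed and 16 were called. Counts of calls moved most with the wells and filter kept: thinning wells to 500 transcripts left 64 genes called (38 higher, 26 lower), wells of at least 1000 transcripts 125 (65 and 60), a filter of 20 counts in 4 sums 124 (61 and 63), and no filter 581 (286 and 295), against 236 (133 and 103). Scaling to total transcripts gave 188 lower and limma on means of wells 202 lower, and BEneg wells with Ccr2 alone 80 higher. The cause of each was not tested, but thinning and the stricter filters test fewer genes. Both populations share each library, so the fit was paired; without the replicate block 213 genes were called (125 higher, 88 lower). The secretion share of BEneg was 1.314% in wells of at least 1000 transcripts, and the stress share 3.173% there and 3.524% as a mean over wells.

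Reversed log2 fold changes were, with scaling to total transcripts, Actg1 -0.38, Cd24a -0.24 and Cebpd -0.15, and with limma on means Actg1 -0.26, Rps16 -0.06 and Rps12 -0.02. With no filter they were Junb -0.04, Rps16 -0.12, Rps12 -0.11, Actg1 -0.51, Cd24a -0.37 and Cebpd -0.20, and in wells of at least 1000 transcripts Junb -0.20, Actg1 -0.28, Cd24a -0.49 and Cebpd -0.47. In BEneg wells with Ccr2 alone they were Junb -0.90, Hspa8 0.06, Txn1 -0.12, S100a11 -0.28, Cd24a -3.05 and Cebpd -1.12. Without those wells Cdh1 stood at 0.18, Jund at 0.21 and Actg1 at -0.21. Actg1 was at -0.01 in wells of at least 250 transcripts, -0.18 with the BEneg and TEpos sums only and -0.12 without wells over 8000 transcripts, Cd24a at -0.02 with these sums only, and Myl12a at 0.05 after thinning. With 1 library left out, Junb ranged from -0.04 to 0.84, Actg1 from -0.13 to 0.24 and Cd24a from -0.24 to 0.53. The cause of these reversals was not tested.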
